A study of Mus musculus with 12 samples.

Results

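Knockdown of Esrra was compared with a scrambled control in Hepa 1-6 cells, a mouse hepatoma line, over all genes. The comparison uses 6 of the 12 libraries of the study, 3 that received the siRNA pool against Esrra (siERRa) and 3 that received the control pool (siC). The other 6 libraries entered the fit to estimate the spread and served as a second setting for the siERRa pool. Of these, 3 received a pool against Hcfc1 (siHCFC1) and 3 received both pools (siERRa+siHCFC1). All cells were of the same line and were labelled wild type. Each plate of 6 cm was seeded with 400000 cells. These were transfected with 100 nM siRNA and a second time after 48 h, 200 nM in all, and RNA was taken at 96 h. Cells given both pools carry the same label of 200 nM, and the amount of each pool in it is not given. Each pool may therefore have been at a lower dose there than in cells given that pool alone. A pool of siRNAs lowers RNA of its target without removing the gene, and with 1 pool per target an effect on Esrra cannot be told apart from one on other transcripts. Of 24326 genes with counts, 15965 passed a filter on low counts and were tested.

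ERRα, the product of Esrra, is an orphan nuclear receptor: it binds DNA without a known natural hormone and depends on coactivators, of which PGC-1α (Ppargc1a) and PGC-1β (Ppargc1b) are the best known. It is known for activating genes of oxidative phosphorylation, the citric acid cycle and fatty acid oxidation, and in liver it also bears on gluconeogenesis and lipid metabolism. Its preferred DNA element is a nuclear receptor half-site with a short 5′ extension.

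Counts in genes ranged from 22.4 to 33.2 M over the 6 libraries, on average 24.8 ± 3.08 M in siC and 27.0 ± 5.41 M in siERRa (SD, n = 3 each). Transcripts of the mitochondrial chromosome took 4.56%, 6.54% and 2.37% of the counts in siC 1, 2 and 3 and 5.49%, 10.1% and 2.92% in siERRa 1, 2 and 3, so this share followed the library number and was higher in the knockdown of each number. With these transcripts left out of the test described below, 1623 genes were called, 664 higher and 959 lower. Of them, 1614 were also called with all genes. Whether the mitochondrial share bears on the results in other ways was not tested. Of 12 hepatocyte markers, Alb, Afp, Apoe, Trf, Hnf4a and Foxa2 were present in every library, Alb at 3545 to 7449 TPM (a level per transcript length, scaled to a fixed sum in each library), whereas Ttr was at 0 to 0.209 TPM. The leukocyte marker Ptprc and the fibroblast marker Col3a1 were at 0 and the endothelial marker Pecam1 reached 0.676 TPM. Other markers of those lineages were present, Dcn at 1360 to 2262 TPM and Cd68 at 109 to 225 TPM. Of 5 leukocyte markers, Cd3e was not among the genes counted, and the summed level of the rest was nearly all Cd68. That sum was 167 to 225 TPM in siC and 109 to 151 TPM in siERRa. Cd68 alone was at 166 to 225 TPM in siC and 109 to 151 TPM in siERRa. The sum of 4 cholangiocyte markers was 201 to 234 TPM in siC and 214 to 268 TPM in siERRa. Separate cultures for the 3 libraries of a group are not stated in the labels, and p-values therefore measure only how these libraries vary, which can be technical.

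After knockdown of Esrra more genes were called lower than higher, by a margin that depended on the processing. With the library number as a block, 1625 of 15965 genes (10.2%) passed the threshold, an adjusted p (Benjamini-Hochberg over all genes tested, edgeR's quasi-likelihood test) below 0.05. Of these, 669 (4.19%) were higher and 956 (5.99%) lower after siERRa. With DESeq2, another test for counts, 996 were higher and 1060 lower, and with RLE, another scaling between libraries, 757 and 841. Most changes were small: the median log2 change was 0.64 among the higher and -0.65 among the lower genes, and 662 of the 1625 changed less than 1.5-fold. A change of at least 2-fold was called for 136 higher genes (0.852%) and 176 lower genes (1.1%). The direction was the same in all 3 pairs of same-numbered libraries for 665 of the 669 and 953 of the 956. These genes were called with the library number as a block, so this agreement follows largely from that choice. Over all genes tested, the 3 siERRa libraries lay above the 3 siC libraries for 7.17% and below them for 9.16%, and among the called genes this held for 387 higher and 677 lower ones.

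The number of calls rests on the block. The labels do not say that a library number marks a shared day or culture, and without the block 70 genes (0.438%) passed, 22 higher (0.138%) and 48 lower (0.301%), all 70 of them among the 1625. Deviations from the group means correlated at 0.0958 to 0.372 between siERRa and siC libraries of the same number (3 pairs) and at -0.329 to 0.0457 between those of different numbers (6 pairs). Leaving out siC 2, siC 3 or siERRa 2 reduced the calls to 977, 896 and 1080, and 614 genes, 228 higher and 386 lower, passed whichever of the 6 libraries was left out.

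**Figure D1:**
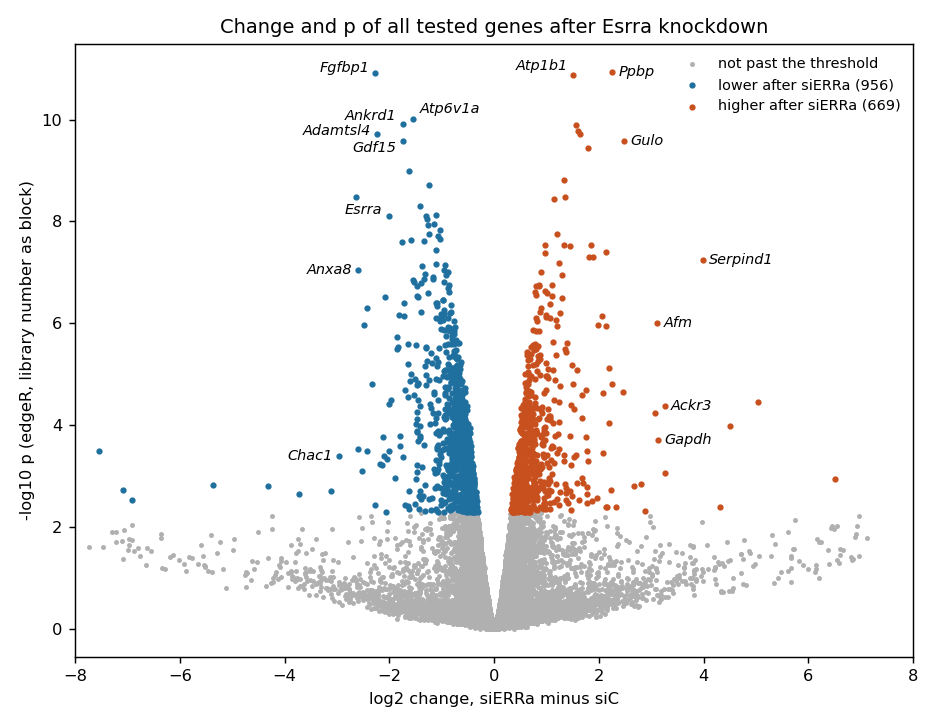
Each point is 1 of 15965 genes, with the log2 change after siERRa against siC on the x axis and the unadjusted p as -log10 on the y axis. Blue points (956) are lower and orange points (669) higher at an adjusted p below 0.05, and most called genes lie within a log2 change of 1 of zero.

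Esrra itself (chr19:6910977-6921813, mm10) fell 4.05-fold. Its level was 46.4, 42.7 and 52.1 CPM (counts relative to library size, scaled between libraries) in siC 1, 2 and 3 and 8.65, 16.9 and 10.5 CPM in siERRa 1, 2 and 3. Every knockdown library lay below every control library, and the smallest fall was in the libraries numbered 2. On the log2 scale the change was -2.02 (SE 0.205, adjusted p = 5.7e-06), and it passed the threshold in all 18 settings tried, with adjusted p from 3.62e-28 to 0.0243. In TPM, Esrra averaged 59.3 ± 7.82 in siC and 14.5 ± 4.76 in siERRa (SD, n = 3 each). The share of transcript left is a measure of RNA, and ERRα protein was not measured in these libraries.

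The partners of ERRα showed little change. Of 21 members of the ERR family and its coregulators, 20 were tested, with Esrra the only 1 lower and Hcfc2 the only 1 higher at the threshold. Ppargc1a, the coactivator gene, was at 7.43, 11.1 and 5.88 CPM in siC and 3.82, 5.00 and 3.70 CPM in siERRa. Its groups did not overlap, but the log2 difference of -0.97 missed the threshold (SE 0.312, adjusted p = 0.0555) and passed without siC 3. Esrrg, which encodes the related receptor ERRγ, was at 0, 0.208 and 0 CPM in siC and at 0.463, 0.256 and 0.545 CPM in siERRa, too few counts for a fold change to be read. Esrrb was not among the genes counted. Hcfc1, the target of the other siRNA pool, was at 179, 142 and 198 CPM in siC and 182, 145 and 109 CPM in siERRa, a log2 difference of -0.30 (adjusted p = 0.35) that comes from library 3. Its paralogue Hcfc2 was at 53.4, 46.7 and 48.3 CPM in siC and rose to 71.3, 61.6 and 70.8 CPM (log2 0.46, SE 0.114, adjusted p = 0.0132). That call ended without siC 1, 2 or 3 or siERRa 3. The remaining 15 members, among them Ppargc1b, Pprc1, Nrip1, Ncor1, Prox1 and the nuclear respiratory factor gene Nrf1, differed by -0.41 to 0.15 on the log2 scale and missed the threshold. The coactivator gene Ncoa3 was the -0.41, and it passed without siERRa 1.

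**Figure D2:**
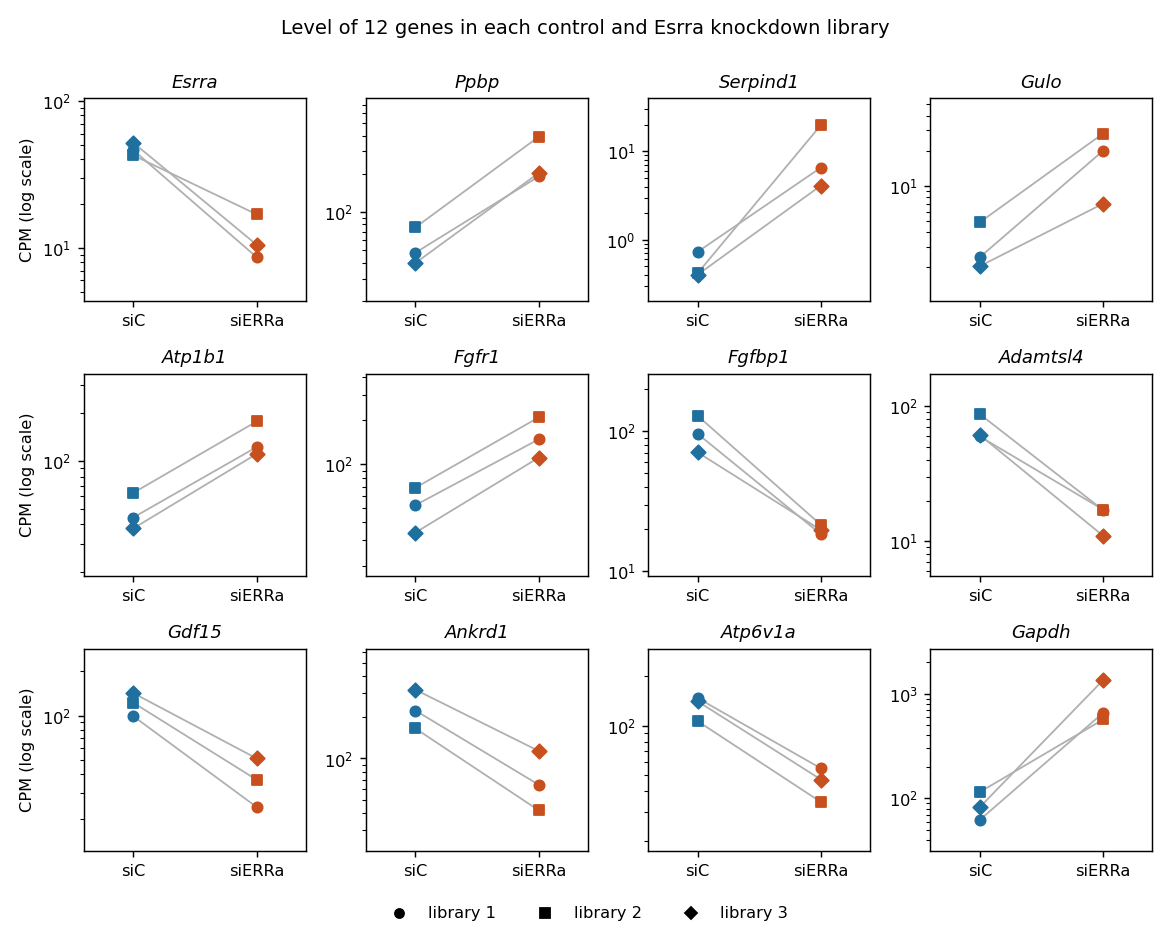
Each panel shows 1 gene in CPM on a log axis, with siC on the left in blue, siERRa on the right in orange and a line between libraries of the same number. All 12 genes move the same way in the 3 pairs, and the 2 groups do not overlap in any panel. The genes other than Esrra were named for calls in these same libraries, so this agreement follows largely from that choice.

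The largest rises were of Serpind1, Ackr3, Gapdh (described with the glycolysis genes) and Afm. Serpind1 (chr16:17331371-17343575), which encodes heparin cofactor II, a plasma inhibitor of thrombin, was at 0.726, 0.416 and 0.400 CPM in siC and at 6.56, 19.9 and 4.10 CPM in siERRa. All knockdown libraries were above the controls, library 2 most of all (log2 3.99, SE 0.46, adjusted p = 2.11e-05). Ackr3, a scavenging receptor for the chemokine CXCL12, rose from 0.342, 0.659 and 0.840 CPM to 5.40, 5.77 and 6.23 CPM (log2 3.26, SE 0.613, adjusted p = 0.0019). Afm, the gene of the vitamin E-binding plasma protein afamin, rose from 1.03, 1.46 and 0.160 CPM to 4.44, 14.6 and 4.30 CPM (log2 3.12, SE 0.438, adjusted p = 1.39e-04). These 3 genes had low counts in the controls, so their folds are less certain than those of abundant genes.

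Among the more abundant genes, Ppbp, the gene of the platelet basic protein chemokine precursor, shared the smallest adjusted p with Atp1b1 and Fgfbp1. It was at 47.9, 75.8 and 39.8 CPM in siC and rose to 191, 392 and 203 CPM (log2 2.25, SE 0.154, adjusted p = 7.2e-08). Atp1b1, the beta subunit of the sodium-potassium pump, rose from 44.3, 63.2 and 37.8 CPM to 123, 177 and 111 CPM (log2 1.504, SE 0.104). Each of the 3 pairs shows about the same ratio for both genes, although the levels themselves differ between library numbers. Gulo, the last enzyme of vitamin C synthesis in mice, rose from 2.44, 4.86 and 2.04 CPM to 19.99, 28.1 and 7.03 CPM (log2 2.48, SE 0.205, adjusted p = 3.88e-07). The fibroblast growth factor receptor gene Fgfr1 (log2 1.60) and the collagen gene Col14a1 (1.65) both had adjusted p below that of Gulo. Tff3, a secreted trefoil peptide, rose from 4.96, 3.05 and 4.84 CPM to 10.0, 13.97 and 29.4 CPM (log2 1.99, SE 0.281, adjusted p = 1.47e-04). Tnfrsf11b, which encodes the decoy receptor osteoprotegerin, rose 2.25 on the log2 scale (SE 0.391). Serpind1, Ackr3, Ppbp, Atp1b1 and Tff3 also passed without the block, and Afm, Gulo, Fgfr1, Col14a1 and Tnfrsf11b did not.

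The largest falls included genes of growth factor carriage, matrix and the cytoskeleton. Fgfbp1 (chr5:43978858-43981779), a carrier that releases fibroblast growth factors from the matrix, was at 96.0, 129 and 70.8 CPM in siC and 18.4, 21.5 and 19.7 CPM in siERRa (log2 -2.27, SE 0.156, adjusted p = 7.2e-08). The 3 knockdown libraries lay close together while the controls were spread more widely. Adamtsl4, a matrix protein of fibrillin microfibrils, fell from 59.9, 87.5 and 61.4 CPM to 17.1, 17.0 and 10.96 CPM (log2 -2.23, SE 0.181). Anxa8, a calcium-dependent membrane-binding annexin, fell from 6.67, 7.39 and 9.81 CPM to 2.12, 0.855 and 1.18 CPM (log2 -2.59, SE 0.308, adjusted p = 2.89e-05). Atp6v1a, the catalytic A subunit of the proton pump that acidifies lysosomes, fell from 148, 107 and 141 CPM to 55.0, 34.3 and 47.1 CPM (log2 -1.55, SE 0.12, adjusted p = 3.38e-07). Notch1, the receptor gene, fell from 52.9, 72.9 and 64.5 CPM to 20.96, 24.6 and 16.6 CPM (log2 -1.62, SE 0.145). These 5 genes passed without the block as well. Ankrd1, a target of the YAP coactivator in many cells, fell from 224, 166 and 319 CPM to 64.2, 41.7 and 113 CPM (log2 -1.75, SE 0.138, adjusted p = 3.38e-07) with groups that did not overlap, and missed the threshold without the block. Hap1 (log2 -2.33), Ppm1j (-2.09) and Sprr1b (-2.01) passed whichever library was left out, and Ppm1j also without the block. Camsap3 (-2.11) lost its call without siC 2, Fcho1 (-2.11) without siC 3 or siERRa 1, Nfe2l3 (-1.999) without siC 3, and the fatty acid elongase gene Elovl2 (-1.89) without siC 2, siC 3, siERRa 1 or siERRa 3.

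Genes of the integrated stress response fell. This programme is driven by ATF4, a transcription factor whose translation increases when the initiation factor eIF2 is phosphorylated, and it supplies amino acids and folate-bound carbon. Of 30 genes tested, 15 fell and 1 rose, with a median log2 change of -0.55 against -0.01 over all genes tested. Gdf15, a stress-induced hormone gene, was at 99.2, 122 and 142 CPM in siC and fell to 24.1, 36.8 and 51.3 CPM (log2 -1.74, SE 0.144, adjusted p = 3.88e-07). Atf4 itself had a log2 change of -0.73 (adjusted p = 6.8e-04) and was called lower, as was Ddit3, the gene of the factor CHOP (log2 -1.24, adjusted p = 8.5e-04). Trib3, a pseudokinase gene induced by ATF4, fell from 24.7, 17.9 and 26.3 CPM to 5.67, 4.70 and 9.53 CPM (log2 -1.86, SE 0.274), and Mthfd2, of mitochondrial folate metabolism, from 36.3, 27.8 and 42.1 CPM to 10.7, 9.57 and 7.89 CPM (log2 -1.86, SE 0.285).

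The amino acid genes of this programme were called lower by different amounts. The cysteine-forming enzyme gene Cth fell by 2.43 on the log2 scale, Aldh1l2 of mitochondrial folate metabolism by 1.48, the amino acid transporter gene Slc7a5 by 1.13, and the proline synthesis genes Pycr1 and Aldh18a1 by 0.93 and 0.92. Of the serine synthesis genes Psph fell (log2 -0.92, adjusted p = 0.023), and Phgdh and Psat1 were at -0.24 and -0.33 without passing, below 0 in all 3 pairs. Whether these genes differ in their change was not tested. The asparagine synthetase gene Asns fell by 0.55, Shmt2 by 0.54 and the arginine transporter gene Slc7a1 by 0.46. The calls of Psph and Asns ended without siC 1, siC 2, siERRa 2 or siERRa 3, that of Slc7a1 without siC 1, siC 3 or siERRa 3, and that of Cth without siC 1. Slc7a5 kept its call, with a log2 change of -0.65 at the smallest, without siC 1. Chac1, which degrades glutathione, showed the largest fall of all named genes, from 13.2, 2.64 and 8.24 CPM to 0.811, 0.812 and 1.89 CPM (log2 -2.95, SE 0.688, adjusted p = 0.00871). Without siC 1 its log2 change was -1.58 and the call ended. The call also ended without siERRa 1, narrowly (adjusted p = 0.0508) and with a log2 change of -2.92, and it held at -1.91 with library number 1 left out of every group. Atf3, a factor shared with the immediate early genes, was the member that rose (log2 0.71, adjusted p = 0.00914), and its call ended without siC 1. The median over the 30 genes was -0.69, -0.57 and -0.40 in pairs 1, 2 and 3, and leaving out 1 library gave 10 (without siC 1) to 15 lower members. Gdf15 and Aldh18a1 passed without the block too.

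**Figure D3:**
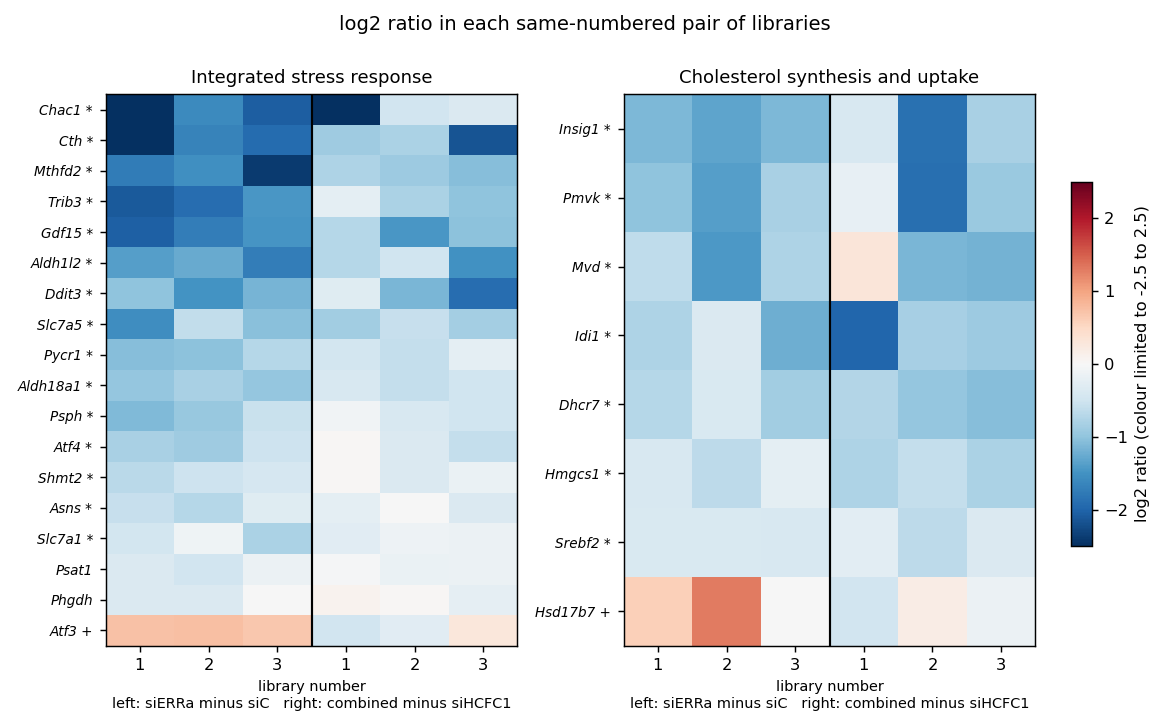
Each row is a gene named in the text, 18 of the integrated stress response and 8 of cholesterol synthesis and uptake, and each column the log2 CPM ratio within a pair of libraries of the same number, siERRa over siC left of the line and siERRa+siHCFC1 over siHCFC1 right of it. An asterisk marks genes called lower in siERRa against siC (15 and 7 of those drawn) and a plus sign the 1 called higher in each list. The genes drawn, of 30 and 27 tested, were named mostly for calls in these same pairs. Blue cells left of the line follow from that choice.

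The unfolded protein response, a separate programme for protein folding in the endoplasmic reticulum, showed no such shift after siERRa. Of 22 genes, 2 fell, 1 rose and the median was -0.11. The 2 that fell are Creld2, from 46.9, 58.3 and 44.1 CPM to 15.7, 25.5 and 17.6 CPM (log2 -1.38, SE 0.162, adjusted p = 2.58e-05), and Sdf2l1 (log2 -1.16, adjusted p = 0.00124), both of which encode resident proteins of that compartment. Dnajb9, a cochaperone gene, rose from 23.7, 32.02 and 39.9 CPM to 38.9, 47.1 and 63.8 CPM (log2 0.65, SE 0.125, adjusted p = 0.00232) with overlapping groups. The chaperone gene Hspa5 (log2 -0.25) and Xbp1 (-0.16) did not pass.

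Genes of cholesterol synthesis and uptake were mostly lower in RNA. Of 27 genes, 15 fell and 1 rose, with a median log2 change of -0.41. Insig1, a sterol sensor of the SREBP pathway, fell from 47.0, 60.4 and 69.0 CPM to 21.7, 24.2 and 31.6 CPM (log2 -1.19, SE 0.191, adjusted p = 5.15e-04). Every knockdown library lay below every control. Dhcr7, the last step of cholesterol synthesis, fell from 119, 173 and 116 CPM to 72.4, 134 and 63.3 CPM (log2 -0.65, SE 0.117). For Dhcr7 the groups overlap and the fall appears within each pair. Srebf2, the gene of the master regulator SREBP2, fell by 0.39 (adjusted p = 0.02), and of the mevalonate steps Pmvk fell by 1.07, Mvd by 0.94, Idi1 by 0.80 and Hmgcs1 by 0.43. Hsd17b7 was the 1 member that rose (log2 0.69), a call that held only without siERRa 3 among the 6 removals. The call of Hmgcs1 ended without siC 2, siERRa 1 or siERRa 2, that of Srebf2 without siC 1, siC 3 or siERRa 2, that of Mvd without siC 1, siC 2, siERRa 2 or siERRa 3, and that of Idi1 without any library but siC 2, whereas Insig1, Dhcr7 and Pmvk passed whichever library was left out. The size of the shift was steady, with medians of -0.43 to -0.39 when 1 library was left out, but the number of calls was not. Without siC 1, siC 2, siC 3, siERRa 1, siERRa 2 and siERRa 3 in turn, 7, 8, 9, 9, 5 and 11 members were called lower, and without the block none of the 27 did (1640 of all genes had an unadjusted p below 0.05 in that fit).

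Genes of fatty acid synthesis moved in the same direction with fewer calls. Of 22 genes 5 fell at the threshold and the median was -0.32. The desaturase gene Fads2 fell from 121, 144 and 99.4 CPM to 69.8, 82.6 and 56.6 CPM (log2 -0.80, SE 0.116, adjusted p = 1.72e-04). Acly, which makes cytosolic acetyl-CoA, fell by 0.53, the fatty acid synthase gene Fasn by 0.48, the desaturase gene Scd1 by 0.48 and the elongase gene Elovl5 by 0.38. Srebf1, which encodes the regulator SREBP1, differed by -0.07 (not called). Fads2 and Acly passed whichever library was left out. They were the 2 called without siC 3, and Fasn lost its call with any of 5 libraries left out, siERRa 1 being the exception. Scd1 lost its call without siC 3, and Elovl5 without siC 1, siC 3, siERRa 1 or siERRa 3.

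Genes of mitosis fell most uniformly. Of 36 genes tested, 29 fell, the median was -0.65, and 35 of 36 had a log2 change below 0. Cenpa, the centromeric histone gene, fell from 71.7, 86.1 and 66.4 CPM to 34.8, 47.1 and 33.5 CPM (log2 -0.96, SE 0.119, adjusted p = 4.19e-05). Kif23, a motor of cytokinesis, was at 88.4, 89.9 and 87.0 CPM in siC and at 54.1, 48.9 and 47.1 CPM in siERRa (log2 -0.83, SE 0.112). Controls and knockdown libraries were each tightly grouped for Kif23 and did not overlap, and both genes passed without the block. Ube2c, of the anaphase-promoting machinery, fell by 0.92 and the kinesin gene Kif20a by 1.01, with 25.3% and 26.7% of their 31-base words shared with other genes. The mitotic kinases Aurkb, Plk1 and Cdk1 fell by 0.82, 0.76 and 0.44, the anaphase activator gene Cdc20 by 0.77, the cyclin gene Ccnb1 by 0.71 and the topoisomerase gene Top2a by 0.72. Ccnb2, the other B-type cyclin listed, differed by 0.04 and Birc5 by -0.28, and neither passed. Leaving out siC 2 reduced the 29 to 19, and removal of another library left 22 to 27. Of the genes named above, Cdk1 lost its call without siC 2 or siERRa 2.

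DNA replication genes did not follow as a group. Of 35, 4 fell, with a median of -0.13. The helicase subunit gene Mcm6 fell from 147, 110 and 129 CPM to 61.4, 48.1 and 52.2 CPM (log2 -1.25, SE 0.134, adjusted p = 1.02e-05) and passed without the block, and the loading factor gene Cdt1 (-0.73) and Mcm10 (-0.94) also fell. The other helicase subunits Mcm2, Mcm3, Mcm4 and Mcm5 differed by -0.11, -0.14, -0.02 and -0.28 and Pcna by -0.06, none of which passed. Mcm7 (-0.40, with 33.4% of its words shared) lost its call without siC 1, siC 2, siERRa 1 or siERRa 2. In bulk RNA, fewer cells in a state and less RNA per cell cannot be told apart.

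Respiratory chain genes, the best known targets of ERRα, were not lower. Of 36 nuclear genes of complex I, the NADH dehydrogenase, 5 rose and 32 had a log2 change above 0 (median 0.25). Ndufv3 rose from 67.1, 59.4 and 78.1 CPM to 102, 82.7 and 132 CPM (log2 0.61, SE 0.11, adjusted p = 0.00125). Ndufa13 rose by 0.53 on the log2 scale, with 33.2% of its words shared, Ndufb7 by 0.61 (call lost without siC 1, siC 3, siERRa 2 or siERRa 3), Ndufc1 by 0.80 (call lost without siC 3) and Ndufa5 by 0.82 (call lost without siC 1). Without siERRa 3 the complex I median was 0.11, and without siC 1 or siC 3 there were 3 calls. For nuclear subunits of complexes II to V, 3 of 40 rose and 1 fell (median 0.12, and 0.02 without siC 3 or siERRa 3). The gene that fell was Cyc1, the cytochrome c1 subunit of complex III, at 86.2, 86.0 and 87.8 CPM in siC and 55.0, 49.3 and 59.3 CPM in siERRa (log2 -0.67, SE 0.125, adjusted p = 0.00175), and its call held without any 1 library. The rises of Cox6a1, Cox6c and Uqcrb did not: all 3 were lost without siC 3, and 34.8% of the words of Uqcrb are shared with other genes. The 13 mitochondrially encoded genes all had a log2 change above 0 (median 0.45), and 4 were called, mt-Nd2, mt-Nd5, mt-Nd6 and mt-Co3. Nearly all words of mt-Co3 (99.9%) recur in other genes, so its reads are uncertain, and its call ended without siC 2. That of mt-Nd2 held without siC 1 but not without any other library. Without siC 1 there were 7 calls and without siC 2 there were 2, with a median of 0.28. The largest by adjusted p was mt-Nd6, at 525, 833 and 301 CPM in siC and 871, 1994 and 636 CPM in siERRa (log2 1.02, SE 0.13, adjusted p = 5.57e-05), where the groups overlap and each pair shows the rise. These 13 genes move with the mitochondrial share of each library given above.

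Other metabolic sets known from ERRα are set beside all genes tested, of which 4.19% were called higher and 5.99% lower. Textbook targets had 5.26% higher and 10.5% lower, and pyruvate entry and citric acid cycle genes 3.23% and 3.23%. Fatty acid oxidation genes had 9.09% higher and 0% lower, and glycogen genes 6.25% and 6.25%. Of 25 textbook targets 19 were tested: Spp1, a secreted phosphoprotein, rose (log2 0.62, SE 0.116, adjusted p = 0.00182), and the mitofusin gene Mfn2 (-0.52) and the citrate synthase gene Cs (-0.33) fell. Both falls were lost whichever library was left out, and the median of the 19 was 0.02. Of 31 genes of pyruvate entry and the citric acid cycle, Suclg1 rose (log2 0.47, adjusted p = 0.00941) and Cs fell, with a median of 0.05. Of 22 genes of fatty acid oxidation and ketone metabolism 2 rose (median 0.05). Bdh1, which interconverts the ketone bodies, was at 3.63, 1.60 and 2.72 CPM in siC and 9.96, 6.62 and 9.84 CPM in siERRa (log2 1.76, SE 0.312, adjusted p = 0.00118), passed without the block and held without any 1 library. Etfb (log2 1.48) shares 49.9% of its words with other genes and lost its call without siC 3. Acadm, the medium-chain dehydrogenase gene and a classical ERRα target, differed by 0.17, Cpt1a by -0.28, Pdk4 by 0.19 and Idh3a by 0.18, none of which passed. The glycogen-targeting phosphatase subunit gene Ppp1r3c rose from 77.1, 72.5 and 63.9 CPM to 165, 131 and 126 CPM (log2 0.98, SE 0.111, adjusted p = 1.68e-05), with and without the block, as 1 of 2 called among 16 glycogen genes. The other, Gyg, fell (log2 -0.78) and lost its call without siC 2, siERRa 1 or siERRa 2.

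**Figure D4:**
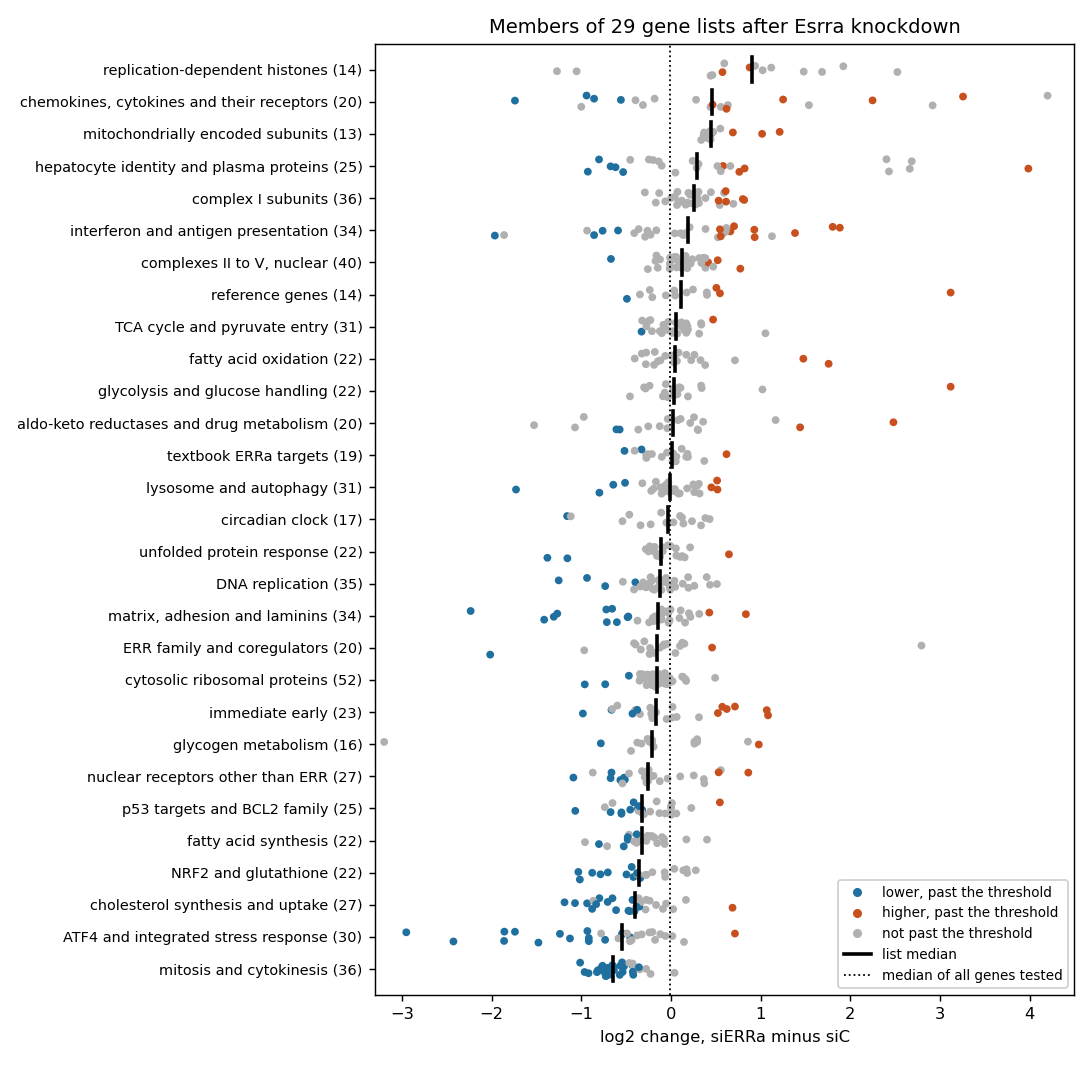
Each point is a tested member of 1 of 29 gene lists, placed by its log2 change after siERRa against siC, with the number tested in brackets. Black bars are list medians, lowest for mitosis at -0.65, and the dotted line is the median of all genes tested at -0.01. The axis is limited, and 2 members beyond it are drawn near its edge.

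Antioxidant genes under the factor NRF2 fell. Of 22 tested, 10 fell (median -0.35). Gclm, a subunit of the enzyme that starts glutathione synthesis, fell from 228, 168 and 320 CPM to 130, 89.1 and 168 CPM (log2 -0.88, SE 0.111, adjusted p = 4.84e-05). Hmox1, the heme oxygenase gene, fell from 157, 120 and 278 CPM to 76.7, 50.1 and 155 CPM (log2 -1.03, SE 0.144). In both genes the controls vary with the library number, the groups overlap, and the fall appears in each pair. Nqo1 fell by 0.70, Osgin1 by 0.79 and Gstm1 by 1.02, the last with 28.8% shared words. Nfe2l2, which encodes NRF2, differed by 0.14 and was not called. The autophagy receptor gene Sqstm1, which NRF2 also drives, fell from 655, 502 and 808 CPM to 349, 277 and 527 CPM (log2 -0.80, SE 0.117, adjusted p = 2.07e-04). Leaving out 1 library left 5 (without siC 3) to 9 lower members of the 22, and no member named here passed without the block.

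Among 25 p53 targets and BCL2 family genes 9 fell and 1 rose (median -0.32). Bbc3, which encodes the death-promoting protein PUMA, fell from 21.6, 26.9 and 30.9 CPM to 10.8, 10.4 and 17.3 CPM (log2 -1.07, SE 0.171, adjusted p = 4.9e-04), Trp53inp1 fell by 0.55 and Perp by 0.55. Fas, a death receptor gene, rose by 0.55 (adjusted p = 0.012), a call lost without siC 2, siC 3 or siERRa 3. Cdkn1a, the best known p53 target, differed by -0.13, and Trp53 by -0.30, without passing. The 9 became 3 without siC 1 and at most 6 without any other library.

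Liver genes changed in both directions. Of 25 hepatocyte genes tested, 4 rose and 5 fell. Alb, the albumin gene, was at 3182, 4558 and 2531 CPM in siC and 4580, 5840 and 4576 CPM in siERRa (log2 0.58, SE 0.1, adjusted p = 9.22e-04), all knockdown libraries just above all controls. Afp, the fetal plasma protein gene, rose from 1143, 1755 and 1019 CPM to 1726, 2939 and 2207 CPM (log2 0.82, SE 0.115). Trf, the transferrin gene, rose by 0.76 (0.43 and no call without siERRa 3, and no call without siC 2), and Serpind1 is the 1 other member that rose. The liver transcription factor genes Hnf4a, Foxa2 and Onecut1 fell: Hnf4a went from 84.6, 72.7 and 110 CPM to 58.2, 45.3 and 63.4 CPM (log2 -0.67, SE 0.122, adjusted p = 0.00134), Foxa2 fell by 0.53 (not called without siC 1, siC 2 or siERRa 2) and Onecut1 by 0.93 (called with all libraries and without siERRa 1). Among the secreted proteins Fgb, a fibrinogen chain, fell by 0.80 and Apoe by 0.62. Ambp, Serpinf2, Ttr and F2 had log2 differences of 2.40 to 2.69 at very low counts and did not pass. Of 27 nuclear receptors outside the ERR family, 6 fell and 2 rose. Without siC 1 the lower members were 3, and the higher were 1 in each removal but that of siERRa 1. Nr2f2, which encodes COUP-TFII, rose from 73.7, 60.3 and 47.4 CPM to 132, 103 and 93.6 CPM (log2 0.86, SE 0.107, adjusted p = 4.44e-05). Pparg fell by 1.09 (not called without siC 1, siERRa 1 or siERRa 3) and the retinoic acid receptor gene Rarg by 0.56, whereas Ppara differed by 0.37 without passing.

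Matrix and adhesion genes were called mostly lower, 10 of 34 against 2 higher. Lamc1, a laminin chain of basement membranes, fell from 432, 486 and 420 CPM to 221, 211 and 125 CPM (log2 -1.31, SE 0.133, adjusted p = 5.7e-06). The matricellular gene Ctgf fell from 1069, 1323 and 894 CPM to 408, 466 and 459 CPM (log2 -1.27, SE 0.132), with 23.2% of its exon bases overlapped by another gene, and both genes passed without the block. Its relative Cyr61, like Ctgf and Ankrd1 a gene known to respond to YAP, fell by 1.42 (adjusted p = 0.005). Without 1 library the log2 change of Cyr61 ran from -2.15 (without siERRa 3) to -1.08 (without siERRa 2) and stayed called. Mmp14, a membrane-bound collagenase gene, rose by 0.83 (adjusted p = 2.95e-04). The collagen genes Col1a1, Col4a1 and Col4a2 and the fibronectin gene Fn1 differed by -0.14 to 0.11 and did not pass.

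Immediate early genes split. Myc fell from 178, 166 and 216 CPM to 111, 81.1 and 93.6 CPM (log2 -0.98, SE 0.129, adjusted p = 7.01e-05), groups apart. Fos was at 7.05, 4.48 and 132 CPM in siC and 14.5, 6.79 and 333 CPM in siERRa (log2 1.07, SE 0.211, adjusted p = 0.00272). Both libraries numbered 3 lay far above the rest for Fos, and without siERRa 3 its log2 change was 0.69. Of 23 genes 6 rose and 4 fell. These counts depended on single libraries, with 2 higher without siC 1 and 1 lower without siC 2. Sgk1, a kinase gene induced by serum and glucocorticoids, rose from 201, 185 and 251 CPM to 321, 240 and 360 CPM (log2 0.52, SE 0.109, adjusted p = 0.00401).

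Interferon and antigen presentation genes were called higher in 9 of 34 cases and lower in 4. Trim12c, an antiviral TRIM protein gene, rose from 2.61, 2.39 and 3.002 CPM to 9.65, 11.7 and 8.49 CPM (log2 1.88, SE 0.215, adjusted p = 1.91e-05) and passed without the block. Trim12c shares 48.1% of its words with other genes, so its reads and those of its neighbour Trim12a (log2 1.80) may be mixed. Trim30a rose by 1.38, the RNA sensor gene Ddx58 by 0.66 and B2m, the light chain of class I molecules, by 0.55. The antigen processing and presentation genes Psmb9 (0.93), Psmb8 (0.70) and H2-D1 (0.56) rose too, of which H2-D1 kept its call without any 1 library. Psmb8 lost it without siC 1, siC 2 or siERRa 1, and Psmb9 without siC 2, siC 3, siERRa 1 or siERRa 3. Another antigen presentation gene, Tapbp, was called lower (log2 -0.59) and kept its call whichever library was left out. Interferon targets were called in both directions: Oasl2 rose by 0.93 (not called without siC 3), Rsad2 fell by 1.97 and Stat2 by 0.76, and Isg15 differed by -0.26 and Irf7 by -0.36 without a call. Of 20 chemokines, cytokines and their receptors 5 rose and 4 fell. The 4 became 2 without siC 1, siERRa 1 or siERRa 3, since Lif (-0.56) lost its call in every removal and Cxcl10 (-0.86) in those 3. Cxcl5, a neutrophil chemokine gene, rose from 20.6, 27.1 and 9.41 CPM to 27.5, 94.1 and 27.4 CPM (log2 1.25, SE 0.218, adjusted p = 0.00102), and Csf1, the macrophage growth factor gene, fell by 0.94 (adjusted p = 0.0025).

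The glycolytic gene Gapdh, often used as a reference, had one of the largest changes and stood alone in its pathway. It was at 62.3, 115 and 82.5 CPM in siC and 657, 568 and 1350 CPM in siERRa (log2 3.12, SE 0.677, adjusted p = 0.00543). In the libraries with siHCFC1 it was at 848, 137 and 932 CPM and with both pools at 1088, 172 and 70.1 CPM, so its level varied widely within those groups. The call was lost without the block, and 28.1% of its words recur in other genes, so that its reads may be shared with near copies. Of 22 glycolysis genes tested Gapdh was the 1 called. Aldoa, Pgk1, Pkm, Eno1 and Ldha differed by -0.24 to 0.11. Among 14 reference genes B2m and Tbp also rose and Tubb5 fell, whereas Actb, Hprt and Ywhaz differed by 0.04, 0.24 and 0.05 and were not called. Tbp (0.51) lost its call without any 1 of the 6 libraries, and Tubb5 (-0.49) without siC 2, siC 3 or siERRa 2.

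The remaining lists are set beside all genes tested, of which 4.19% were called higher and 5.99% lower. Lysosome and autophagy genes had 9.68% higher and 12.9% lower, and aldo-keto reduction and drug metabolism 10% and 10%. Replication-dependent histones had 14.3% higher. Cytosolic ribosomal proteins had 5.77% lower and clock genes 5.88%, near the share of all genes. Of 31 lysosome and autophagy genes 3 rose and 4 fell, the latter led by the melanosomal and lysosomal glycoprotein gene Gpnmb, which went from 159, 255 and 204 CPM to 32.9, 97.2 and 79.0 CPM (log2 -1.73, SE 0.228, adjusted p = 7.64e-05). Lamp2, a lysosomal membrane protein gene, rose by 0.52. It was the 1 member higher without siC 2 or siC 3, where the cathepsin genes Ctsa and Ctsz lost their calls. Of 52 cytosolic ribosomal protein genes 3 fell, with 46 of 52 below 0 and a median of -0.16. Without siERRa 3, 10 of them fell. Rplp1 (-0.96), 1 of the 3, has 75.1% of its words in other genes too. Among 17 clock genes Cry1 fell (log2 -1.16, adjusted p = 0.00232). Of 14 replication-dependent histone genes 2 rose, Hist1h1c (0.57) and Hist1h2bc (0.88, with 33.3% of its words shared), and neither kept its call without siC 1, siC 3, siERRa 1 or siERRa 3. This list had the highest median of the 29 drawn (0.91, with 12 of 14 above 0), from 0.58 without siC 1 to 1.403 without siC 2, and 0.80 in siERRa+siHCFC1 against siHCFC1. Of 20 genes of aldo-keto reduction and drug metabolism 2 rose, Gulo and Cyp7b1 (called with all libraries and without siERRa 1), and 2 fell, Ugt2b35 and Akr1b3. The drug-metabolizing gene Cyp2c68 (2.19) and the receptor gene Pilrb2 (2.13), among the largest rises, have 62.0% and 48.2% of their words in other genes too, and Pilrb2 passed without the block.

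Between siERRa+siHCFC1 and siHCFC1 most called genes moved the same way, in 6 libraries outside the contrast that chose them. The dose of the siHCFC1 pool may also differ between these groups, and whether it bears on the changes was not tested. These libraries were within the same fit. Esrra itself fell from 46.4, 64.5 and 59.15 CPM in siHCFC1 to 18.9, 20.5 and 12.5 CPM in siERRa+siHCFC1 (log2 -1.71, SE 0.202, adjusted p = 1.0e-04). The called genes were chosen for passing after siERRa alone, a choice that enlarges their change there. The sizes of change in the 2 settings are therefore not compared. Between siERRa+siHCFC1 and siHCFC1, 562 genes (3.52%) passed the threshold, 220 (1.38%) higher and 342 (2.14%) lower. Of the 956 genes lower after siERRa alone, 889 (93.0%) had a log2 change below 0 there, against 48.6% of all genes tested, with a median of -0.32. Of the 669 higher genes, 561 (83.9%) were above 0, with a median of 0.26. Passing in both settings with the same direction were 308 genes, 19.0% of the calls after siERRa alone and 54.8% of those after siERRa on siHCFC1. Those numbers rest on libraries that share their library number, and over all 15965 genes the changes had a Pearson r of 0.188 and a Spearman rho of 0.309 as a description. Without the block 1 gene passed between siERRa+siHCFC1 and siHCFC1, and leaving out siHCFC1 1, 2 or 3 or siERRa+siHCFC1 1 or 2 left 358, 222, 293, 335 and 184.

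By gene, Fgfbp1 fell in this second setting from 123, 163 and 84.8 CPM to 28.4, 39.0 and 32 CPM (log2 -1.86, adjusted p = 3.8e-06), Atp6v1a by 1.30, Gdf15 by 1.07, Ankrd1 by 1.11 and Ctgf by 1.09. Tff3 (2.22), Bdh1 (1.51), Gulo (1.35), Cxcl5 (1.28) and Ppbp (1.14) rose in it. Cholesterol synthesis and uptake had 17 of 27 genes lower in it (median -0.72), and the unfolded protein response had 13 of 22 lower (median -0.62). The integrated stress response had 4 of 30 lower (median -0.24), mitosis 5 of 36 (median -0.32) and the 22 NRF2 targets had a median of -0.06, and whether these lists differ between the settings was not tested. By gene it was tested, as the change by siERRa with siHCFC1 minus that without it. The dose of each pool may differ between the settings, and whether dose bears on this difference was not tested. With the block this difference passed for 23 genes (0.144%), 8 (0.0501%) more positive and 15 (0.094%) more negative with siHCFC1, and without the block for 0, with 439 at an unadjusted p below 0.05 in edgeR. Lect2, a gene of a liver-secreted chemotactic protein, rose by 1.18 after siERRa alone and differed by -0.13 in the second setting (adjusted p of the difference 0.0225).

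**Figure D5:**
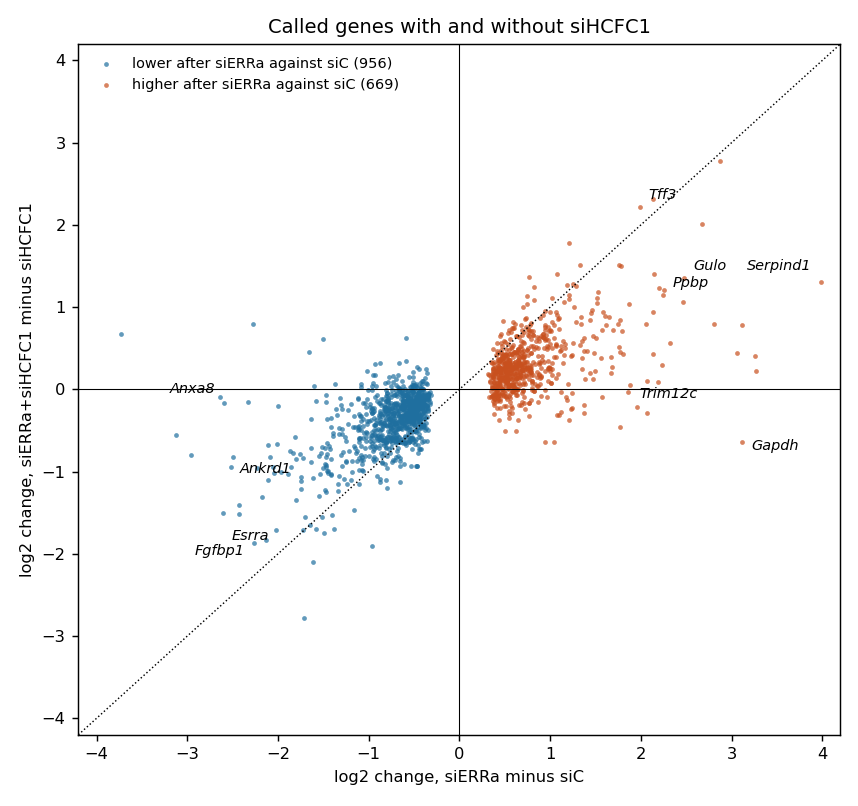
Each point is a gene called in siERRa against siC, with that log2 change on the x axis and its change in siERRa+siHCFC1 against siHCFC1, measured in other libraries, on the y axis. Blue points (956) lie mostly below 0 and orange points (669) mostly above 0 on the y axis, and the dotted line marks equal change. Of the called genes, 9 lie outside the axes.

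Promoters were searched for the ERR half-site, because genes that respond to loss of a DNA-binding receptor may or may not carry its element near their start. The motif AAGGTCA and its extended form TCAAGGTCA, which contains the first, were sought on both strands in windows from 250 bases before to 50 after the annotated start. Of the called genes with such a window, 21 of 734 lower ones (2.86%) and 20 of 496 higher ones (4.03%) held AAGGTCA, against 450 of 10628 tested genes (4.23%) and 473 of 13599 windows in all (3.48%). The extended form was in 1 of 734, 2 of 496 and 38 of 10628 (0.358%). A match is a string of letters and says nothing of binding, and ERRα may act from sites outside these windows. Among the genes named here, Serpind1, Afm, Dhcr7, Sgk1 and Perm1 held a match. The windows of the 3 called genes that rose are printed below. That of Dhcr7, which was called lower, is not printed, and Perm1 was not called. The printed windows therefore do not show how matches divide between genes that rose and genes that fell. Sequences are from RefSeq, build GRCm38.p6, plus strand, with the match in capitals, which is the reverse complement of the motif in Serpind1 (chr16:17331121-17331420) and Afm (chr5:90518699-90518998) and the extended match in the Sgk1 window (chr10:21985854-21986153) read without its first 2 letters.
Serpind1: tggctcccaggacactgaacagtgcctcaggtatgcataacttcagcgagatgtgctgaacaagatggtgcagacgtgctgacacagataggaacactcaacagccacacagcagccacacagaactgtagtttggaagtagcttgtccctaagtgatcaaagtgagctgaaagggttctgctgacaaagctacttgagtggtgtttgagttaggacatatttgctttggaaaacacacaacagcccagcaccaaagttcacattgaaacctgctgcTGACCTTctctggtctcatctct
Afm: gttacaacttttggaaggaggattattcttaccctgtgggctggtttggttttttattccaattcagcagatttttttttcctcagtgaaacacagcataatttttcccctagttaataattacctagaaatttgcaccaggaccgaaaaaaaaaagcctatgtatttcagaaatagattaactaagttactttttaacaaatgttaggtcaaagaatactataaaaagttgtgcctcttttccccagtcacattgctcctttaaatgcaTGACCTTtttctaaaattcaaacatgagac
Sgk1: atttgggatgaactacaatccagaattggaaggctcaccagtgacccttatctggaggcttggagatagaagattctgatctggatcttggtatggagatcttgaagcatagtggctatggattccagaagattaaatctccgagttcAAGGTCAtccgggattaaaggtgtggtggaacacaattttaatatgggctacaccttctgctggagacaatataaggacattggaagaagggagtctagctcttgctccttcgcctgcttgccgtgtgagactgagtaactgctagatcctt
The Serpind1 match starts 27 bases after and the Afm match 20 bases after the annotated start, while in Sgk1 the match AAGGTCA starts 102 bases before it, as part of the longer match that starts at 104. Sgk1 has another annotated start with a window of its own (chr10:21978422-21978721, not printed), which also holds the extended form, on the opposite strand, 63 bases before that start. Serpind1 and Afm are among the largest rises (3.99 and 3.12 on the log2 scale) and Sgk1 rose by 0.52. Dhcr7, which fell, has its match 51 bases before the start.

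In the authors' deposited table of siERRa against siC, 289 genes had an adjusted p below 0.05, 119 higher and 170 lower. Of these, 273 were called here in the same direction, 94.5% of the calls in the authors' deposited table and 16.8% of the 1625.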

How the data were processed

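The authors sequenced RNA of 12 libraries. Per the labels' protocols, total RNA was treated with DNase and the library kit keeps no strand information. HISAT2 2.0.5, featureCounts 1.5.0-p3, DESeq2 1.20.0 and mm10 are named in the submitters' processing notes. The deposited tables hold whole-number read counts per gene, spread over 5 comparison tables that also carry the authors' log2 fold changes and p-values or adjusted p-values. On merging, 0 of 377781 values repeated between tables differed, and 0 was entered for 5451 blanks. Another 72 columns of per-library values were not used.

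The test was edgeR 4.0.16 in R 4.3.3 (filterByExpr, TMM scaling, estimateDisp, glmQLFit, glmQLFTest) on all 12 libraries, with 4 group means and the library number as a block (6 residual degrees of freedom). All 12 libraries correlated best with another of their own number, but not every pair of same-numbered libraries exceeded 0.1, so the block was used because it was set for this comparison. CPM is TMM-scaled, TPM was computed from the counts and the deposited gene lengths, and standard errors come from the fitted log2 change and F. Tests on simulated data for siERRa against siC (15965 genes) recovered 35.8%, 55.2% and 71.2% of genes changed 1.5-, 2- and 4-fold, with 4 false calls. The simulated counts were drawn from the fit with the block itself, with 67, 67 and 66 genes changed. They therefore cannot show whether the block holds, and the 4 false calls are no error rate for the real libraries. For 138 genes taken by the naming rule below, those sharing over 20% of 31-base words, or of exon bases, with others are marked as uncertain. Other list members named in the text were not checked for this, so the lack of a mark says nothing of their reads.

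The comparison, its 30 gene lists and the rule for naming genes were chosen with earlier results of these data known. The rule takes Esrra and the ERR family, per direction the 12 largest called changes (same direction in all 3 pairs, mean of at least 5 TPM in the higher group, no predicted genes or pseudogenes) and the 6 smallest adjusted p, up to 4 called members per list and 5 per direction for the difference between the settings with and without siHCFC1. Some genes it takes are not reported here. Other list members named were chosen after their values were seen. Settings tried were no block, 6 libraries, DESeq2 1.42.0, RLE scaling, other filters, limma 3.58.1 on log2(TPM + 0.5), no mitochondrially encoded genes and each library left out. The 6 libraries without the block were a setting chosen after seeing the data. Counts limit precision for the lowest genes, and TPM and CPM carry counting error.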

Additional observations from a re-analysis of the deposited data

Results flagged for a closer look

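The change by siERRa differed between cells with and without siHCFC1 for 23 genes (0.144%) by a test of the difference itself (edgeR with the library number as a block), 8 of them with a more positive (0.0501%) and 15 with a more negative (0.094%) change on siHCFC1. The count rests on the block, since 0 genes passed without it and 439 had an unadjusted p below 0.05 in that fit, and 212 passed in DESeq2. Those named here by the rule are given as the log2 change on siHCFC1 minus that without it. Each pool may have been at a lower dose in cells given both, and whether dose bears on these differences was not tested.

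Among genes that rose after siERRa alone, the difference was -1.10 for Ppbp, -1.83 for Trim12c, -1.89 for Gbp9, -0.87 for Atp1b1, -1.02 for Dnajb9, -0.84 for B2m, -1.66 for Ctso, -1.39 for Cd59a and -1.31 for Lect2. Gbp9, an interferon-induced guanylate-binding protein gene, was at 2.78, 4.02 and 1.72 CPM in siC and 9.50, 14.1 and 6.97 CPM in siERRa (log2 1.86), and its change on siHCFC1 was -0.03. After siHCFC1 alone Gbp9 was already at 23.6, 43.35 and 20.6 CPM, and after both pools at 18.5, 47.05 and 21.8 CPM. Trim12c was at 33.2, 40.8 and 25.3 CPM after siHCFC1 alone. For both genes these siHCFC1 levels lay above every siERRa library. Lect2, a gene of a liver-secreted chemotactic protein, changed by 1.18 without and -0.13 with siHCFC1, and the cathepsin gene Ctso by 1.37 and -0.29. Ppbp and Atp1b1 rose in both settings, by 2.25 and 1.14 and by 1.504 and 0.63.

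Among genes that fell after siERRa alone, the difference was 2.42 for Anxa8, 1.28 for Adamtsl4 and 1.21 for Iqgap3. Anxa8 fell by 2.59 without siHCFC1 and had a log2 change of -0.17 with it. Iqgap3, a scaffold gene of the IQGAP family, fell by 0.58 without and rose by 0.62 with siHCFC1. The difference was 3.17 for the zinc finger gene Zfp111, which changed by 0.10 (not called) without and 3.26 with siHCFC1, and 1.33 for Fam53c, which changed by -0.48 (not called) and 0.85.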

How the results depend on the processing

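Of 119 genes taken by the naming rule and called in siERRa against siC, 0 changed sign in any setting, 89 passed whichever of the 6 libraries was left out, and 23 passed with no replicate block. The 1625 calls (669 higher, 956 lower) became 70 (22 and 48) without the block, 806 (258 and 548) with limma on log2(TPM + 0.5), and 39 (13 and 26) in the 6 libraries alone without the block, a setting chosen after seeing the data. DESeq2 gave 2056 (996 and 1060), the 6 libraries with the block 1981, RLE scaling 1598 and no filter 1892. Leaving out the mitochondrially encoded genes gave 1623 (664 and 959). Leaving out 1 library of this comparison, or 1 library number in every group, gave 720 to 1322 calls, 307 to 534 higher and 393 to 788 lower.

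For siERRa+siHCFC1 against siHCFC1 the 562 calls became 1 without the block (1159 unadjusted), 0 in 6 libraries without it (857 unadjusted), 934 with DESeq2, 897 with no filter, 140 with limma, and 96 to 428 with 1 of its libraries or 1 number left out. The 23 calls of the difference became 0 without the block (439 unadjusted), 0 with limma (1404 unadjusted), 212 with DESeq2, 37 with RLE scaling, 204 with no filter, 37 with a stricter filter, and 0 to 42 with libraries left out. The causes were not tested.

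Signs turned with libraries left out for genes that were not called, over ranges of log2 change of -0.114 to 0.21 for Ppargc1b, -0.302 to 0.001 for Pprc1, -0.529 to 0.042 for Hcfc1, -0.266 to 0.11 for Ncoa2, -0.251 to 0.252 for Ncor1, -0.222 to 0.034 for Nrf1, -0.212 to 0.386 for Sirt1, -0.643 to 0.073 for Perm1 and -0.097 to 0.353 for Zfp111. RLE scaling moved the split of calls to 757 higher and 841 lower.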
